A study of Danio rerio with 19 samples.

Results

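The unexposed larvae of this zebrafish (Danio rerio) study form 1 group, the control, taken by its treatment label: 4 of 19 samples. Control larvae were kept in a medium that the labels call ERM, with no test compound. The other groups were exposed to atorvastatin (AVS), a cholesterol-lowering drug, at 100 ng/L (AVS low) or 1 µg/L (AVS high), or to afidopyropen (Afid), an insecticide, at 100 ng/L (Afid low) or 1 µg/L (Afid high), with 3 samples in Afid low and 4 in each other group. Of 5 replicates planned in each group, 4 were chosen for sequencing, per the series' design text, and every sample is RNA of whole larvae. The sources used here do not give the age, stage, strain or sex of the larvae, nor how many make up a sample. Nothing says that the 4 control libraries came from separate clutches or tanks, so the spread among them may be partly technical. Read counts of 15 libraries were used, the 4 control libraries and 11 exposed ones, and the exposed libraries serve only as a range set beside the control.

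A whole larva is a mixture of all its tissues, and the level of a transcript in it sums over every cell type that makes it. Fast muscle fills much of the trunk of a larval zebrafish, the eyes are large for the body, and liver, pancreas and gut take over nutrition as the yolk is used up. In such bulk RNA, fewer cells of a type and less RNA per cell cannot be told apart. Levels are given as TPM, which are reads divided by gene length and scaled to the same sum in each library. Where 4 values follow each other, they are those of control replicates 1, 2, 3 and 4.

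The control libraries held 15.04, 15.13, 13.16 and 18.63 M reads in genes, a mean of 15.5 M ± 2.28 (SD, n = 4). Of 26507 genes listed in the deposited tables, 25125 had a read in at least 1 control library and 20652 had reads in all 4. On the mean of the 4 libraries, 18960 genes stood at 1 TPM or more, 9145 at 10 TPM or more, 1037 at 100 TPM or more and 144 at 1000 TPM or more. The median gene with a read stood at 5.18 TPM. Protein-coding genes took 99.0% ± 0.0843 of reads (SD, n = 4), and 17898 of 22725 protein-coding genes with reads reached 1 TPM. Log2 CPM, read counts scaled to library size, of any pair of control libraries correlated at a Pearson's r of 0.929 to 0.968 over 19249 genes, which are not independent of each other. No pair was a duplicate: the chi-square per degree of freedom between the counts of a pair was at least 14.0. Replicate 2 stood apart from the other 3 libraries in digestive genes, so the shares of digestive lists are also given without it.

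A small number of genes made up much of the transcriptome. The 100 highest genes took 39.9%, 45.7%, 43.0% and 51.4% of TPM in replicates 1 to 4 (45.0% ± 4.88, SD, n = 4), and the 10 highest took 13.7% to 17.3%. Among the 100 highest by mean TPM were 40 ribosomal proteins, 10 protein genes of the mitochondrial genome and 11 members of the fast muscle list. Replicate 4 was the most concentrated library and replicate 1 the least. Genes at 10 TPM or more numbered 10080, 8772, 9398 and 7674.

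The highest nuclear gene was actc1b, an actin of skeletal and cardiac muscle, at 24962, 31381, 27013 and 27712 TPM (ENSDARG00000099197, chromosome 17, 117024 to 125091, minus strand, genome build unstated). It was followed by pvalb1, a parvalbumin that buffers calcium in fast muscle, at 19732, 30894, 21679 and 33458 TPM (ENSDARG00000037789, chromosome 3, 61193890 to 61205711, minus strand). Myosin light chain mylz3 stood at 7693, 10129, 8746 and 14784 TPM. In all 3 the lowest of the 4 values was that of replicate 1, and for pvalb1 and mylz3 the highest was that of replicate 4. In TPM the ribosomal stalk protein rplp0 lay within a narrow range, with 9542, 10051, 9921 and 9798 TPM. This range is one of TPM and not of CPM. In CPM replicate 1 was the lowest in 74 of 81 ribosomal protein genes, against 23.9% of all genes. Replicate 4 was the highest in 66 of 81, against 26.6%. The ADP/ATP carrier slc25a5 of the inner mitochondrial membrane averaged 9175 ± 1445 TPM, muscle creatine kinase ckmb 8325 ± 622 TPM, the elongation factor eef2b 7010.1 ± 1071 TPM and the nucleoside diphosphate kinase nme2b.2 6679 ± 2152 TPM (SD, n = 4 each). The trypsin precursor prss1 was the highest gene of the digestive lists, at 6119, 2048, 6269.5 and 9435 TPM, lowest in replicate 2. The ribosome-bound scaffold rack1, the cytoplasmic actin actb2, the keratin krt91 and the elongation factor eef1a1l1 also ranked among the 20 highest nuclear genes, at means of 5802, 5759.9, 5113 and 5105 TPM. The 20 also hold 5 ribosomal protein genes described below, zgc:114188 at 5254 ± 830.0 TPM and the processed transcript FO704736.1 at 5233 ± 1037 TPM (SD, n = 4 each), both with symbols that name no product.

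**Figure D1:**
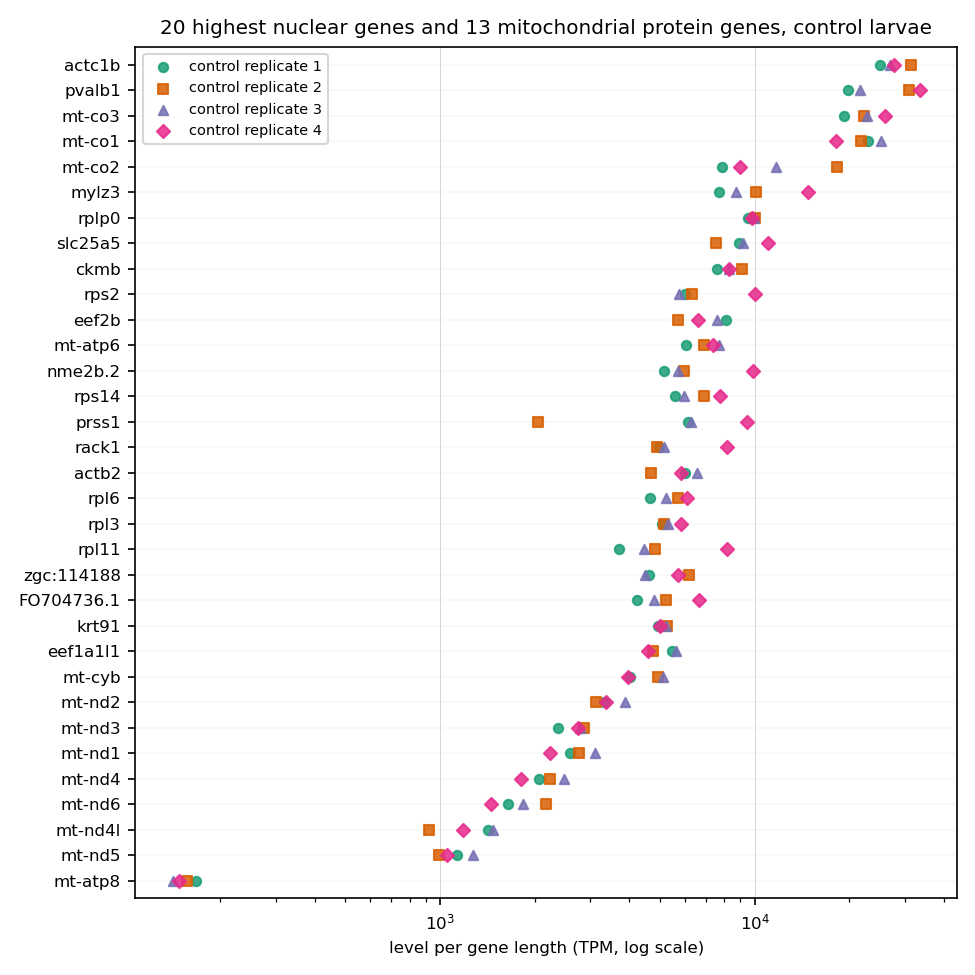
Level per gene length (TPM, log scale) of the 20 highest nuclear genes and the 13 mitochondrial protein genes, 1 point for each control library, ordered by mean. actc1b and pvalb1 lead, and the points of most genes lie close together, while replicate 2 lies apart for prss1 and for mt-co2.

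Ribosomal proteins, the protein subunits of the cytosolic ribosome, were the largest group. Their 84 genes with control reads took 13.9%, 17.2%, 14.9% and 18.997% of TPM (16.3% ± 2.297, SD, n = 4), against 10.7% to 17.0% in the 11 exposed libraries. Of the 84, 70 averaged 100 TPM or more, and the median member stood at 1526 TPM. rps2 of the small subunit averaged 7024 ± 2032 TPM and rps14 6547 ± 973 TPM, rpl6 and rpl3 of the large subunit 5429 ± 619.7 and 5342 ± 344 TPM (SD, n = 4 each). rpl11 stood at 3703, 4831, 4433 and 8140.3 TPM, with replicate 4 above the others. Translation factors added 2.70% ± 0.179 of TPM over 46 genes (SD, n = 4), with eef1g at 3630.2 TPM and eif5a at 1287 TPM on average.

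The mitochondrial genome encodes core subunits of the respiratory chain, and its 13 protein genes took 7.48%, 8.94%, 8.94% and 7.84% of TPM. Cytochrome oxidase subunits led: mt-co3 stood at 19296, 22214, 22717 and 25937 TPM and mt-co1 at 22886, 21839, 25170.5 and 18152 TPM. mt-co2 varied more, with 7858, 18308, 11730.1 and 8992 TPM, highest in replicate 2. The ATP synthase subunit mt-atp6 averaged 7008 ± 723 TPM and the cytochrome b gene mt-cyb 4506 ± 599 TPM (SD, n = 4 each). Subunits of complex I were lower, between 1113 TPM for mt-nd5 and 3426 TPM for mt-nd2, and mt-atp8 was the lowest of the 13 at 153 ± 11.3 TPM (SD, n = 4). Nuclear genes of the respiratory chain took 1.72% ± 0.168 of TPM over 83 genes (SD, n = 4). The ATP synthase subunits atp5f1b and atp5mc3b led them at means of 1761 and 1759 TPM.

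Fast skeletal muscle was the tissue with the largest share, at 9.02%, 11.5%, 9.70% and 11.3% of TPM (10.4% ± 1.19, SD, n = 4), against 8.30% to 12.1% in the exposed libraries. Members with reads numbered 53, and 27 averaged 100 TPM or more. Thin filament genes were high, with tropomyosin tpma at 4451 ± 1215 TPM, troponin tnni2a.4 at 3239 ± 655 TPM and troponin tnnt3b at 2237 ± 347 TPM (SD, n = 4 each). The myosin heavy chain myhz1.1 stood at 5247, 4862, 4583 and 2345 TPM, lowest in replicate 4, the library in which the myosin light chain mylz3 was highest. The calcium pump atp2a1 averaged 3889.5 ± 651 TPM and the giant sarcomere proteins ttn.1 and neb 24.2 ± 9.74 and 11.8 ± 7.01 TPM (SD, n = 4 each).

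Slow muscle took 0.0565% ± 0.00854 of TPM and heart muscle 0.0416% ± 0.00713 (SD, n = 4 each), far less than fast muscle. Part of this lies in the lists: 53 fast members had reads, against 13 slow and 15 heart members. The fast list also holds actc1b, an actin of cardiac muscle too. Under the symbols used, vmhc and vmhcl of the heart list and smyhc3 of the slow list were not listed. The slow myosin smyhc1 stood at 124, 60.5, 127 and 71.8 TPM and the slow troponin tnnc1b at 127, 133, 138 and 103 TPM. Of heart genes, the cardiac myosin light chains cmlc1 and myl7 averaged 40.4 ± 7.23 and 22.6 ± 1.49 TPM and the natriuretic peptide nppb 0.898 ± 0.400 TPM (SD, n = 4 each). The smooth muscle list took 0.0510% ± 0.0111 of TPM (SD, n = 4). Its actin-binding gene tagln stood at 279, 240.4, 302 and 446 TPM and the smooth muscle actin acta2 at 159, 118, 212 and 159 TPM, both lowest in replicate 2.

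Skin was the next tissue by mean share after muscle and exocrine pancreas, with 1.55%, 1.78%, 1.70% and 1.89% of TPM in the epidermis list. Keratins, the intermediate filaments of epithelia, made up most of it: krt91 stood at 4929.8, 5269, 5243 and 5010.4 TPM, krt4 at 3561, 4109, 3929 and 3709.8 TPM and cyt1 at 2138, 2879.9, 2282 and 3728 TPM. The basal keratinocyte regulator tp63 averaged 5.01 ± 1.12 TPM (SD, n = 4). Ionocytes, the salt-transporting cells of the skin, were represented by the sodium pump subunit atp1b1b at 51.2, 34.8, 42.7 and 41.1 TPM, the carbonic anhydrase ca2 at 23.4, 12.2, 22.3 and 13.7 TPM and the ammonia transporter rhcgb at 15.1, 8.37, 10.3 and 11.998 TPM.

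The eye contributed 2 large lists. Lens fibre genes, mostly crystallins, took 1.39%, 1.17%, 1.43% and 2.15% of TPM, with replicate 4 above the other 3. crybb1 led at 2256, 1934, 2098 and 2965 TPM, followed by crygm2d8 at 843, 871, 961 and 1890.0 TPM and crygn2 at 964, 699.7, 919 and 1511 TPM. The water channel mipb of lens fibres stood at 90.1, 39.1, 98.0 and 66.6 TPM, and here replicate 4 was not the highest. Photoreceptor genes took 0.572%, 0.879%, 0.716% and 0.584% of TPM, highest in replicate 2. The cone phosphodiesterase subunit pde6ha led at 1354, 2176, 1374 and 1313 TPM. Rod opsin rho stood at 1194, 1520.4, 1333 and 1097 TPM (ENSDARG00000002193, chromosome 8, 54076195 to 54077740, minus strand, genome build unstated).

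Among the cone opsins the ultraviolet-sensitive opn1sw1 was the highest at 637, 1214, 1297 and 919 TPM. The green opsin opn1mw1 stood at 166, 340.0, 338 and 224 TPM, the red opsin opn1lw2 at 163, 382, 279 and 227 TPM and the blue opsin opn1sw2 at 25.8, 43.3, 44.1 and 27.5 TPM. All 4 were lowest in replicate 1. opn1mw2 averaged 50.6 ± 17.0 TPM and opn1lw1 0.355 ± 0.230 TPM (SD, n = 4 each), and opn1mw3 had 0 control reads. The means thus ran in the order opn1sw1, opn1mw1, opn1lw2, opn1mw2, opn1sw2 and opn1lw1, in which opn1mw1 and opn1lw2 differed by less than the SD of either, and opn1mw2 and opn1sw2 by less than the SD of opn1mw2. Opsin genes of 1 colour are near copies of each other, so the split of reads among them is uncertain. The cone transducin gnat2 averaged 197 ± 47.1 TPM and the rod transducin gnat1 47.6 ± 9.59 TPM (SD, n = 4 each). In the pigment epithelium, rgra and the retinoid isomerase rpe65a averaged 81.1 ± 14.1 and 76.7 ± 7.11 TPM (SD, n = 4 each).

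Genes of the digestive organs were abundant in the control larvae, and they were also where the libraries lay furthest apart. Exocrine pancreas genes, which encode digestive enzymes, took 2.02%, 0.518%, 1.93% and 3.02% of TPM, against 1.45% to 4.14% in the exposed libraries. Replicate 2 thus lay below all 11 exposed libraries and below the other control libraries, whose mean share without it was 2.32%. Trypsins led: prss59.2 stood at 3538, 768, 3097 and 6648 TPM and prss59.1 at 3054, 513, 3014 and 5357 TPM, beside prss1. The elastase ela3l stood at 1282, 541, 1341 and 2168 TPM, carboxypeptidase cpa5 at 1492, 256, 1400.3 and 1422 TPM, the chymotrypsin-like ctrl at 1184, 384, 1123 and 1331 TPM and the amylase amy2a at 1001, 112, 817 and 1005 TPM. In each of these, replicate 2 was the lowest.

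Liver genes, mostly secreted plasma proteins, took 1.46%, 0.920%, 1.46% and 1.44% of TPM, against 1.26% to 1.49% in the exposed libraries, with a mean of 1.45% without replicate 2. The fetuin fetub stood at 3144, 1402, 2685 and 2052 TPM, apolipoprotein apoa2 at 1965, 1464, 2299 and 3227 TPM and the liver fatty acid binding protein fabp10a at 1672, 1803, 1759.8 and 2198 TPM. fabp10a was not lowest in replicate 2, while apobb.1, the core apolipoprotein of secreted lipoproteins, was, with 323, 37.2, 254 and 151 TPM. Complement c3a.1 stood at 172, 31.6, 193 and 123 TPM and transferrin tfa at 192, 88.4, 280.5 and 158 TPM. Vitellogenins, the yolk precursors that the liver of mature females makes, were near 0: vtg1 averaged 0.235 ± 0.240 TPM (SD, n = 4), and the 3 genes of that list with reads all lay below 1 TPM.

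Intestine genes took 0.486%, 0.185%, 0.573% and 0.547% of TPM, against 0.390% to 0.679% in the exposed libraries, and their mean share without replicate 2 was 0.535%. The bile acid binding protein fabp6 stood at 800.3, 957, 994 and 1269.7 TPM and was lowest in replicate 1, not in replicate 2. The chitinase chia.2 stood at 1121, 175, 1339 and 1141 TPM, the apolipoprotein apoa4b.1 of absorbing enterocytes at 488, 138, 513 and 423 TPM and the chitinase chia.1 at 296, 26.2, 494 and 434 TPM. In these 3, replicate 2 was far below each of the other libraries. The endocrine pancreas list took 0.0409% ± 0.00518 of TPM (SD, n = 4), with somatostatin sst1.1 at 72.2, 70.28, 92.6 and 89.3 TPM and insulin, ins, at 1.82, 1.36, 1.32 and 1.62 TPM. Its 15 members summed to a mean of 409 TPM, so most of the share came from members other than sst1.1 and ins. The 1 member that averaged 100 TPM or more was neither of them.

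**Figure D2:**
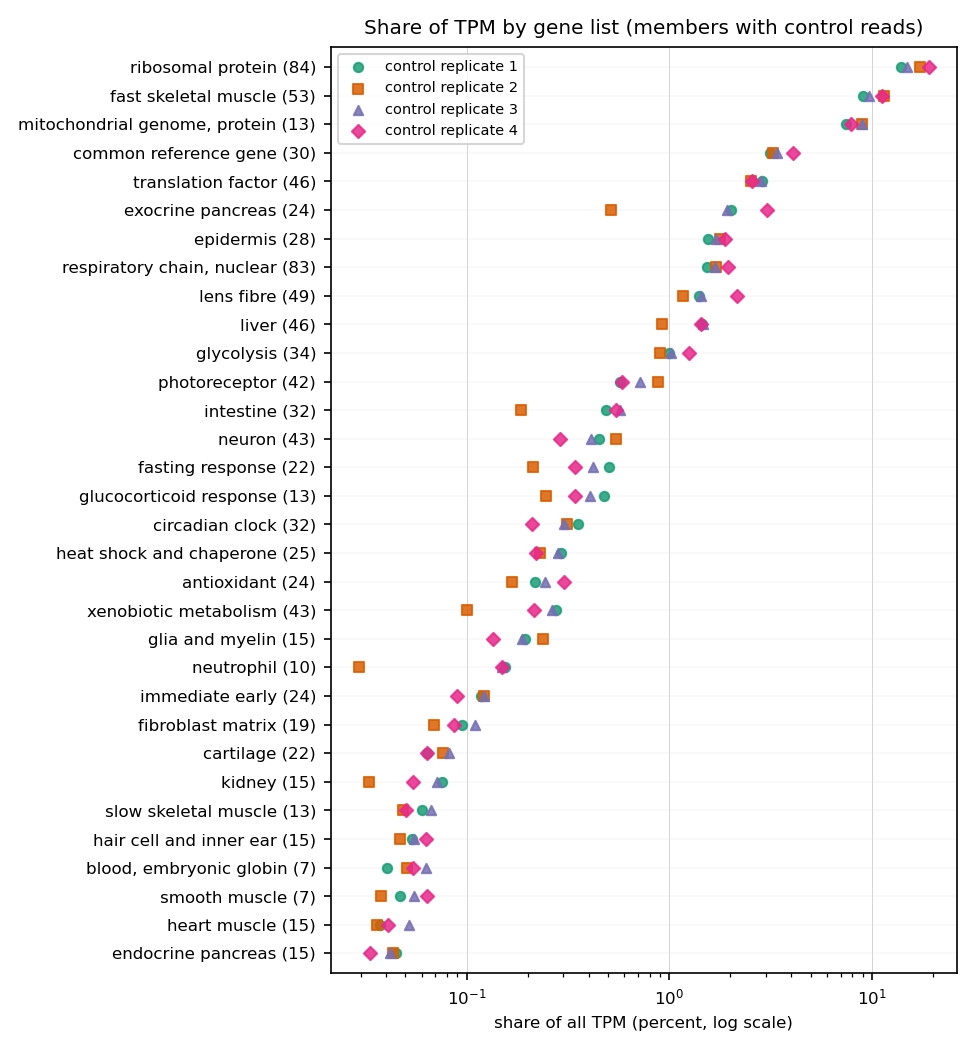
Share of all TPM (percent, log scale) taken by each gene list whose mean is 0.04% or more, 1 point for each control library, with the number of members that had control reads. Ribosomal proteins, fast muscle and the mitochondrial genome lead, and replicate 2 lies far to the left in the exocrine pancreas, intestine, xenobiotic metabolism and neutrophil lists. The neutrophil sum was set by cpa5, which is also in the exocrine pancreas list.

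Neuron genes took 0.451%, 0.545%, 0.413% and 0.290% of TPM, highest in replicate 2 and lowest in replicate 4. The synuclein sncb led at 619.5, 807, 527 and 354 TPM, followed by the microtubule regulator stmn1b at 385, 731, 421 and 265 TPM and the synaptic fusion protein snap25a at 437, 549, 409.7 and 266 TPM. Of transmitter markers, the GABA-making enzyme gad1b stood at 155, 173, 126 and 85.3 TPM, the glutamate transporter slc17a6b at 63.2, 57.3, 54.2 and 33.4 TPM and the choline acetyltransferase chata at 31.2, 36.1, 27.6 and 18.5 TPM. Monoamine markers were low: tyrosine hydroxylase th averaged 9.66 ± 1.84 TPM and the serotonin-synthesizing tph2 5.98 ± 2.76 TPM (SD, n = 4 each). Glia and myelin genes took 0.189% ± 0.0420 of TPM (SD, n = 4). Glutamine synthetase glula averaged 633 ± 157 TPM and myelin basic protein mbpa 101 ± 18.2 TPM (SD, n = 4 each).

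Hormone genes stood below 100 TPM. Among hypothalamic peptides vip averaged 28.5 ± 11.4 TPM, the thyrotropin-releasing hormone trh 19.9 ± 6.33 TPM, the oxytocin gene oxt 19.03 ± 1.01 TPM and the corticotropin-releasing hormone crhb 17.8 ± 5.56 TPM (SD, n = 4 each). In the pituitary list, growth hormone gh1 averaged 9.19 ± 1.41 TPM and the thyrotropin subunit tshba 1.601 ± 0.721 TPM (SD, n = 4 each), while prl, lhb, fshb and smtla had 0 control reads. The steroid-making gene star of the interrenal, the fish adrenal, averaged 9.92 ± 0.934 TPM (SD, n = 4).

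Blood, vessel and immune genes were minor. Embryonic globins took 0.0524% ± 0.00933 of TPM (SD, n = 4), led by hbbe1.1 at 204, 293, 316 and 231 TPM and hbae3 at 136, 139.9, 221 and 241 TPM. The adult globins that were listed were near 0. hbba2 had 2, 2, 0 and 0 reads, hbaa2 had 3 reads in replicate 2 alone and hbaa1 had 0 control reads. Under the symbols used, 3 of 6 adult globins and 4 of 11 embryonic globins were not listed. The vessel receptor kdrl averaged 8.15 ± 2.01 TPM and the macrophage gene lcp1 11.2 ± 4.04 TPM (SD, n = 4 each). The neutrophil list took 0.154%, 0.0296%, 0.149% and 0.149% of TPM, but its sum was set by cpa5, which is also in the exocrine pancreas list. The other neutrophil genes were low, led by lect2l at 12.7, 11.6, 32.9 and 19.5 TPM and ncf1 at 10.6, 4.65, 22.2 and 12.8 TPM. The median member of the lymphocyte and thymus list stood at 0.805 TPM, against 6.48 TPM in the neutrophil list. The recombinase rag1 stood at 2.81, 0.976, 2.24 and 2.33 TPM. The 12 lymphocyte and thymus members with reads summed to a mean of 69.2 TPM, so some stood well above rag1.

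Skeletal, connective and pigment tissues held small shares. Cartilage genes took 0.0717% ± 0.00945 of TPM (SD, n = 4), led by the matrilin matn3a at 79.0, 132, 126 and 89.5 TPM and by the cartilage collagen col2a1a at 66.8, 77.2, 85.1 and 56.6 TPM. Collagen col1a1b of connective tissue stood at 169, 144, 209.9 and 155 TPM and fibronectin fn1b at 224, 40.3, 176 and 110.3 TPM, lowest in replicate 2. Bone markers were low, with the mineralization gene phex at a mean of 15.6 TPM. Melanophore genes took 0.0305%, 0.0311%, 0.0300% and 0.0309% of TPM, led by the pigment enzyme tyrp1b at 88.6, 103, 90.2 and 104 TPM. Relative to its mean, this summed share of TPM had the narrowest spread of any tissue list. As a share of reads the sum was 0.0322%, 0.0369%, 0.0342% and 0.0401%. That is wider, relative to its mean, than the iridophore list at 0.0154%, 0.0154%, 0.0169% and 0.0156% of reads. Single members were measured in CPM, where their median coefficient of variation beyond counting error, defined below, was 24.3%, against 21.1% over all genes. The purine enzyme paics led the iridophore list at 25.3, 27.9, 29.1 and 25.8 TPM and the carotenoid enzyme bco1 stood at 44.5, 16.4, 46.5 and 32.2 TPM in the xanthophore list.

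Sensory and minor organs were also visible. The hair cell and inner ear list took 0.0547% ± 0.00652 of TPM (SD, n = 4), most of it from the parvalbumin pvalb8 at 436, 381, 461 and 555 TPM. The otolith gene otomp stood at 14.2, 4.26, 12.5 and 11.1 TPM. The surfactant protein gene sftpba of the swim bladder stood at 10.7, 7.02, 9.13 and 3.24 TPM, lowest in replicate 4. Thyroglobulin, tg, stood at 2.11, 0.729, 1.55 and 1.397 TPM, the germ cell gene ddx4 at 4.93, 1.19, 3.15 and 1.56 TPM and the egg envelope gene zp3b at 2.45, 1.21, 2.07 and 0.529 TPM. The hatching gland protease he1.1 had 1 read in all, in replicate 2.

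All tissue lists together, each gene counted a single time, held 657 genes with reads and 19.3% ± 1.86 of TPM (SD, n = 4). The lists are selections of markers, not whole tissues, so a share is the share of these genes and not of a tissue's cells. The defining genes of muscle, skin, lens, retina, liver, pancreas, gut and brain were all present, which does not go against the label of whole larvae. Markers of earlier or later stages cannot check the stage here, since only 2 of 7 hatching gland genes, 2 of 6 adult globins and 3 of 8 yolk precursors had control reads under the symbols used, and a low value in these tables is of limited meaning, as described below.

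Glycolysis genes took 0.998%, 0.897%, 1.02% and 1.25% of TPM, with glyceraldehyde phosphate dehydrogenase gapdh at 1521, 1284, 1688 and 3565 TPM. The gluconeogenic enzyme pck1, which is induced by fasting and glucocorticoids, stood at 2256, 390.2, 1772 and 1621 TPM and was the highest member of both of those lists, with replicate 2 far below the others. Other glucocorticoid-responsive genes lay closer together: cebpd stood at 922, 867, 917 and 705 TPM, klf9 at 541, 354, 443 and 337 TPM and fkbp5 at 378, 263, 287 and 253 TPM. The heat-inducible hsp70l stood at 4.15, 2.82, 1.80 and 2.51 TPM, beside the constitutive chaperone hsp90ab1 at 2379, 1872, 2317 and 1768 TPM. The antioxidant list took 0.233% ± 0.0563 of TPM (SD, n = 4), led by the peroxiredoxin prdx2 at 644, 488, 760.0 and 779 TPM. The replication factors mcm7 and pcna averaged 96.4 and 72.3 TPM.

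By the spread of the median member, clock, glucocorticoid and immediate early genes varied least among the lists. Their summed shares of TPM did not vary least. The SD of the sum over its mean was 20.7%, 26.4% and 13.6%, against 6.63% for translation factors. The median over members of the coefficient of variation beyond counting error was 10.9% for clock genes, 12.7% for glucocorticoid-responsive genes and 13.6% for immediate early genes, against 21.1% over all 19249 genes with a mean of 10 or more reads. This coefficient is the SD of CPM over their mean, after the variance from counting is taken off. It also depends on level: its median was 36.3% at means of 10 to 50 reads, 16.1% at 200 to 1000 and 14.9% at 1000 to 5000. The median members of these lists stood at 44.5, 98.4 and 32.7 TPM, against 5.18 TPM for the median gene with a read. The lists were not compared with genes of like level, and the part of level in their low spread was not tested. The clock repressor bhlhe40 stood at 437, 453, 404 and 283 TPM, the Rev-Erb repressor nr1d2a at 372, 351, 315 and 217 TPM and the period gene per2 at 211, 163, 189.6 and 125 TPM. The clock activator arntl1a was lower, at 38.5, 37.0, 35.8 and 23.3 TPM. The immediate early gene junbb stood at 139.6, 159, 158 and 117 TPM and fosab at 49.8, 62.3, 47.7 and 37.9 TPM. In CPM, replicate 4 was the lowest of the 4 libraries in 18 of 30 clock genes, against 27.8% of all genes, and replicate 3 in 5 of 30, against 16.2%. The TMM factors, which scale the CPM and not the TPM, were 1.09, 1.02, 1.03 and 0.870.

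Detoxifying genes were led by the cytochrome P450 cyp3a65 at 1489, 318, 1289 and 1089 TPM and the efflux transporter abcg2a at 276, 65.8, 240.2 and 217 TPM, both lowest in replicate 2. The aryl hydrocarbon target cyp1a stood at 45.2, 11.4, 50.5 and 42.3 TPM and was also lowest in replicate 2, while the glutathione transferase gstp1, at 147, 176, 226 and 189 TPM, was lowest in replicate 1.

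The pathways that the compounds act on were measured at their unexposed level. Atorvastatin inhibits HMG-CoA reductase, the rate-limiting enzyme of sterol synthesis. Of its genes, hmgcrb stood at 31.5, 25.4, 25.7 and 21.4 TPM and hmgcra at 0.205, 0.430, 0.0371 and 0.182 TPM, from 29 reads in all. The 27 sterol genes with control reads took 0.0273% ± 0.00673 of TPM (SD, n = 4), and 24 averaged 1 TPM or more. The low-density lipoprotein receptor ldlra led at 61.2, 25.3, 55.3 and 38.3 TPM, followed by the sterol-sensing regulator srebf2 at 49.0, 29.2, 33.2 and 22.6 TPM. Its partner scap averaged 13.6 ± 5.64 TPM and the retention factor insig2 14.3 ± 3.06 TPM (SD, n = 4 each), and insig1 had 0 control reads. Among the synthetic enzymes idi1 averaged 23.7 ± 3.66 TPM, dhcr7 12.3 ± 4.08 TPM, cyp51 11.2 ± 4.74 TPM, fdft1 10.9 ± 2.64 TPM, hmgcs1 9.98 ± 2.24 TPM, fdps 5.69 ± 1.59 TPM, sqlea 1.33 ± 0.750 TPM and lss 1.25 ± 1.07 TPM (SD, n = 4 each). In TMM-scaled CPM, not in the TPM given above, the spread of hmgcrb was small, with a coefficient of variation of 3.79% beyond counting error.

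Afidopyropen is known as a modulator of TRPV channels in insect sense organs. The 3 vanilloid channel genes of zebrafish with reads lay below the median gene, with trpv1 at 2.99, 2.69, 2.57 and 2.70 TPM, trpv6 at 2.81, 1.398, 2.87 and 1.96 TPM and trpv4 at 1.66, 1.74, 1.398 and 2.08 TPM. Every trpv1 value lay above every trpv4 value, and the values of trpv6 overlapped both.

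Among genes that the files mark with a DNA-binding domain, the cold shock domain protein ybx1 led at 1770.3, 2042, 1711 and 1567 TPM. It was followed by cebpd and by atf4a, the effector of the integrated stress response, at 688, 655, 634 and 502 TPM. hmgb3a stood at 482, 680.5, 498 and 302 TPM and the forebrain factor foxg1b at 288, 349, 245 and 206 TPM. Of the 10 highest, 4 are members of the clock list (bhlhe40, nr1d2a, tefb and nr1d1), and tefb averaged 281 ± 76.3 TPM (SD, n = 4). Among non-coding genes other than those of the mitochondrial genome, FO704736.1 was followed by the long intergenic RNA CR383676.1 at 299.7, 474, 267 and 166 TPM.

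Levels also differed along the genome. On chromosome 4, 675 of 1288 protein-coding genes with control reads reached 1 TPM, 52.4% with a median of 1.16 TPM, against 74.6% to 85.8% and medians of 4.04 to 9.05 TPM on the other 24 chromosomes. Chromosome 4 holds 210 genes with a NACHT domain, found in innate immune receptors, and 312 with C2H2 zinc fingers. The lowest levels lay between 30 and 70 Mb, where the medians per 10 Mb were 0.323, 0.365, 0.268 and 0.210 TPM, against 10.3 TPM in the first 10 Mb. In those 4 windows 98 of 112, 102 of 131, 95 of 123 and 95 of 122 genes carried either domain. From 70 to 80 Mb the median was 1.36 TPM, also below those of the other chromosomes, and 115 of 219 genes carried either domain. By domain over all chromosomes, NACHT genes had a median of 0.328 TPM (80 of 323 at 1 TPM or more) and C2H2 genes one of 0.929 TPM (285 of 596). Actin genes had a median of 72.0 TPM and tubulin genes one of 79.6 TPM. Such families hold near-identical copies, and whether their shared reads were dropped or split in counting is not stated in the sources used here.

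Some genes that all cells, or a whole tissue, need were listed with almost no reads, which limits what a low value shows. Of the ribosomal proteins, rpl9 had 31 reads, rpl32 1 read and a gene named rpl26 2 reads over the 4 control libraries, beside a list median of 1526 TPM. The complex I subunit ndufs1 and the enolase eno1a had 0 control reads. The fast muscle genes mylpfa and pvalb2 had 17 and 73 reads, and the lens gene cryaba had 0. Over all 15 libraries with counts, exposed ones included, ndufs1 had 7 reads and eno1a 13. ndufs1 overlaps 1 listed gene, ino80db, and rpl9 overlaps 2, while eno1a, mylpfa, pvalb2 and cryaba overlap none of the listed genes. The rpl26 entry with 2 reads overlaps 1 listed gene that is also named rpl26, so its reads are not those of every entry of that name. The cause of these low counts was not tested. A value near 0, such as those of ins, prl, hmgcra or hprt1, is therefore a value of these tables and not evidence that the gene was silent. Over the same 15 libraries ins had 104 reads, prl 74, hmgcra 135 and hprt1 6. All reads of prl were in exposed libraries.

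The 4 control libraries differed from each other well beyond counting error. A chi-square test of each gene's 4 counts against the scaled library sizes, with Benjamini-Hochberg adjustment, called 15788 of 19249 genes, 82.0% of those with a mean of 10 or more reads. This test compares libraries and says nothing of a condition. The biological coefficient of variation by edgeR, which holds all spread beyond counting, technical spread included, was 0.265, and it was 0.217 without replicate 2, against 0.279 to 0.298 without replicate 1 or 3 and 0.264 without replicate 4. Over 1 common set of 20143 genes it was 0.298 in the control, 0.292 in AVS high and 0.294 in AVS low with 4 libraries each, and 0.209 in Afid low with 3. The median coefficient of variation beyond counting was 36.3% in genes with means of 10 to 50 reads and 14.9% at 1000 to 5000 reads. It was 23.0% in the 363 genes above 5000 reads, so the highest genes were not the steadiest.

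Replicate 2 stood apart. Of 14698 genes with a mean of 50 or more reads, 1191 lay at least 2-fold below the mean of the other 3 libraries in replicate 2, 8.10%, and 137 lay 2-fold above, 0.932%. In replicate 4, 363 genes lay 2-fold above, 2.47%, and 171 below, 1.16%. Replicate 1 had 158 above, 1.07%, and 194 below, 1.32%, and replicate 3 had 49 above, 0.333%, and 115 below, 0.782%. Scaled by total counts in place of TMM, the split turned round in replicate 4, with 150 above and 483 below, and in replicate 1, with 327 above and 105 below, while replicate 2 had 162 above and 1122 below. The first principal component held 54.1% of the variance among the 4 libraries and placed replicate 2 at 77.3 and the others between −39.8 and −17.3.

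Genes of the gut and of the exocrine pancreas lay furthest apart. For the score of a list, each member's log2 CPM was centred on its mean over the 4 libraries, and the median of the centred values was taken in each library. Over all genes the score lay between −0.04 and 0.01. Intestine scores were 0.28, −1.73, 0.63 and 0.91 and exocrine pancreas scores 0.13, −1.38, 0.26 and 1.19. Replicate 2 was the lowest of the 4 in 29 of 32 intestine genes and in 21 of 23 exocrine genes with a mean of 10 or more reads, against 32.2% of all genes. Of those with a mean of 50 or more reads, 24 of 32 intestine genes and 18 of 19 exocrine genes lay at least 2-fold below the other 3 libraries, beside the 8.10% of all genes. The 8 intestine members that did not were fabp6, fabp1b.1, dab2, amn, cubn, fabp2, lrp2b and alpi.1, of which dab2, amn, cubn and lrp2b act in the uptake of proteins by endocytosis.

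**Figure D3:**
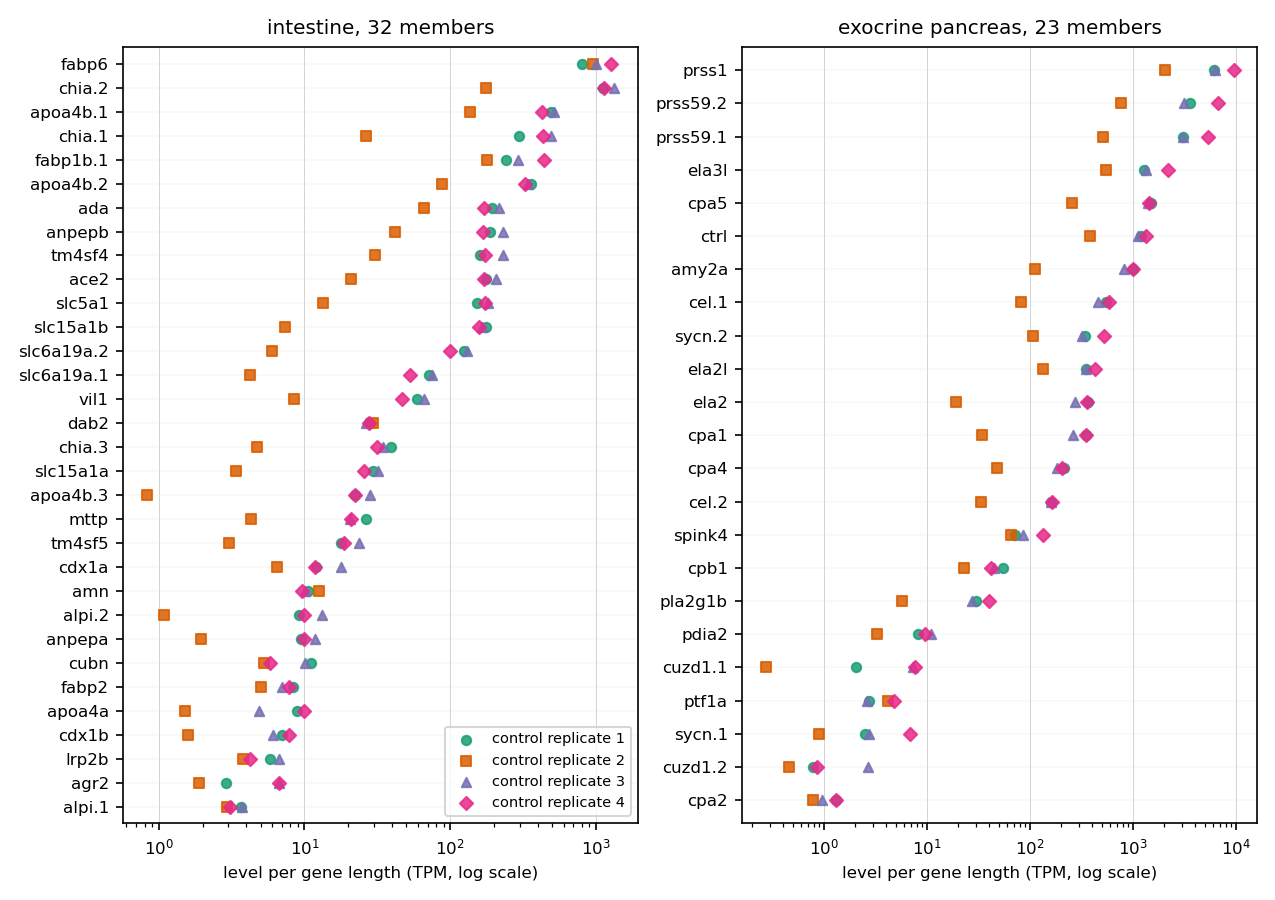
Level per gene length (TPM, log scale) of the intestine (left) and exocrine pancreas (right) genes with a mean of 1 TPM or more, 1 point for each control library. Replicate 2 lies to the left for most genes of both lists, among them slc15a1b, apoa4b.3 and amy2a, and close to the others for fabp6, dab2, amn and ptf1a.

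Transporters of the brush border, the absorbing face of enterocytes, were among the genes furthest below in replicate 2. The peptide transporter slc15a1b stood at 177, 7.40, 165 and 158 TPM, a log2 difference of −4.51 in CPM between replicate 2 and the mean of the other 3 (ENSDARG00000044528, chromosome 6, 12556427 to 12588044, minus strand, genome build unstated). The amino acid transporter slc6a19a.2 stood at 125, 5.95, 130.3 and 98.9 TPM and the glucose transporter slc5a1 at 152, 13.5, 180.4 and 172 TPM. The 5 genes furthest below in replicate 2 by the rule for named genes were the triglyceride-making enzyme dgat2 at 80.7, 1.82, 58.2 and 49.8 TPM, BFSP1 at 32.7, 0.730, 25.3 and 18.9 TPM, the cholesterol importer NPC1L1 at 28.7, 0.781, 22.1 and 15.1 TPM, apoa4b.3 at 22.2, 0.827, 28.1 and 22.2 TPM and slc15a1b. dgat2, NPC1L1 and apoa4b.3 belong to the handling of dietary fat, and BFSP1 is named for a lens filament protein.

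Liver genes followed at a smaller size, with scores of 0.11, −0.74, 0.20 and 0.37 and with replicate 2 the lowest in 37 of 43 genes, against the same 32.2% of all genes, which also stands beside the next 3 counts. Genes of xenobiotic metabolism scored 0.15, −0.66, 0.35 and 0.35, with replicate 2 the lowest in 31 of 42, and macrophage genes 0.21, −0.78, 0.15 and 0.35, with 7 of 10. Kidney genes scored 0.14, −0.55, 0.30 and 0.11, with 9 of 14, and of the absorbing kidney and gut genes cdh17 stood at 57.6, 21.3, 66.6 and 56.7 TPM. Fasting-responsive genes scored 0.16, −0.33, 0.11 and 0.01. Replicate 2 was the lowest in 15 of 22 of them, against 32.2% of all genes, and the highest in 5, against 30.6%. Of the fasting-responsive genes, pck1, described above, and the insulin-like growth factor binding protein igfbp1a, at 349, 134, 319 and 262 TPM, were lowest in replicate 2.

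Other lists were highest in replicate 2. Hypothalamic peptides scored −0.16, 0.53, −0.14 and −0.18, glia −0.21, 0.31, −0.07 and −0.08 and neurons −0.07, 0.30, −0.07 and −0.19. Replicate 2 was the highest of the 4 in 26 of 41 neuron genes, 12 of 15 glia genes and 26 of 38 photoreceptor genes, against 30.6% of all genes. Of genes 2-fold above in replicate 2, the furthest were fam32a at 8.81, 55.1, 30.2 and 9.78 TPM and the vesicle fusion gene napgb at 19.99, 66.5, 26.5 and 13.1 TPM. fam32a was also high in replicate 3.

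Replicate 4 was highest in lens, exocrine pancreas, ribosomal protein and respiratory chain genes. Lens scores were −0.28, −0.45, −0.06 and 0.76, and replicate 4 was the highest in 39 of 43 lens genes and in 22 of 23 exocrine genes, against 26.6% of all genes. The gamma crystallin crygm2d7 lay furthest above the other libraries, at 18.4, 21.9, 32.2 and 162 TPM (ENSDARG00000076572, chromosome 9, 22271056 to 22272181, minus strand, genome build unstated). Near-identical gamma crystallin copies can share reads, so the split among them is uncertain. Ribosomal protein genes scored −0.46, 0.09, −0.22 and 0.48 and nuclear respiratory chain genes −0.40, 0.03, −0.11 and 0.43. Replicate 4 was the highest in 66 of 81 and 63 of 79 of them, and replicate 1 the lowest in 74 of 81 and 70 of 79, against 23.9% of all genes.

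Among genes of 500 bases or more, replicates 1 and 4 were also ordered by gene length. In genes of 500 to 1000 bases the median of log2 CPM, minus the mean of the 4 libraries, was −0.16 in replicate 1 and 0.18 in replicate 4, and in genes of 8000 bases or more it was 0.20 and −0.19. Without ribosomal and mitochondrial genes the 500 to 1000 base class stood at −0.15 and 0.18. The 353 genes of less than 500 bases did not follow this order, at 0.03 in replicate 1 and 0.09 in replicate 4. Without ribosomal and mitochondrial genes that class stood at 0.06 and 0.05. The median length was 1245 bases in ribosomal protein genes, 965 in nuclear respiratory chain genes, 1081 in lens genes and 1397 in exocrine pancreas genes, against 2458 in all 19249 genes. Lists of longer genes did not follow the order. Intestine genes, with a median of 2822.5 bases, scored highest in replicate 4, at 0.91. Cartilage and cell cycle genes, with medians of 3436.5 and 3062 bases, scored lowest in replicate 1. The part of length in the scores of these lists was not tested. The genes furthest above in replicate 1 include the neuronal glutamate receptor grin2db at 5.84, 1.17, 1.74 and 1.41 TPM, the chloride transporter slc12a5a at 25.1, 6.17, 7.11 and 8.02 TPM, and the potassium channel kcna1b at 14.2, 3.83, 4.62 and 4.11 TPM. Replicate 1 was the lowest of the 4 in 18 of 22 cartilage genes and in 20 of 27 cell cycle genes, against 23.9% of all genes. The scores of these 2 lists in replicate 1 were −0.46 and −0.43.

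**Figure D4:**
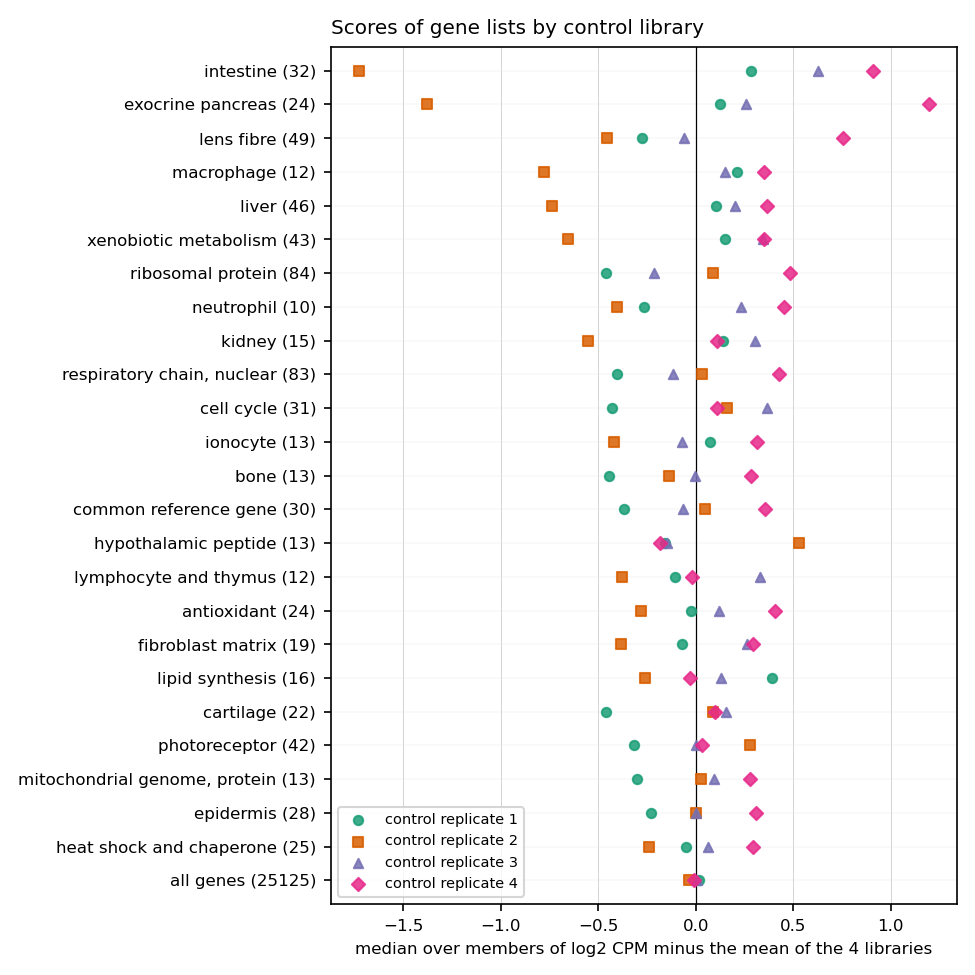
Score of each list (median of the members' centred log2 CPM, the unit of the axis) in each control library, for the 24 lists of 10 or more genes with the widest spread and for all genes. Replicate 2 lies far below 0 for intestine and exocrine pancreas genes, at −1.73 and −1.38, and replicate 4 is the highest for these and for lens genes.

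Some single genes spread further. Of genes with a symbol and a mean of 50 or more reads, the respiratory chain gene cox7a3 had the highest coefficient of variation beyond counting, with 60.3, 4.60, 4.58 and 2.96 TPM, and 272 of its reads were in replicate 1 against 23, 19 and 20 in the others. shbg stood at 1.31, 0.841, 3.65 and 8.92 TPM, the keratin krt96 at 4.80, 1.29, 7.88 and 19.5 TPM and the itaconate-making enzyme gene irg1l at 3.45, 1.69, 9.55 and 16.6 TPM, each highest in replicate 4 and lowest in replicate 2. fus was high in replicate 3 at 1.196, 0.563, 8.03 and 0.799 TPM. epd, the gene of ependymin, a brain glycoprotein, split the libraries differently, at 18.0, 96.5, 94.7 and 17.7 TPM, high in replicates 2 and 3 and low in 1 and 4. The complement gene c3a.2 was highest in replicate 3, at 1.56, 0.948, 6.83 and 2.28 TPM, and so was complement factor cfb, at 10.4, 2.07, 19.7 and 10.7 TPM. The genes furthest below in replicate 3 include the pyruvate dehydrogenase subunit pdha1a at 15.4, 9.44, 3.86 and 8.43 TPM, and those furthest below in replicate 4 the synuclein sncga at 23.8, 11.5, 25.6 and 4.68 TPM.

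At the other end, 53 of 4721 genes with a mean of 500 or more reads had no spread beyond counting error. Among the 10 named by the rule were the secretion factor scfd1 at 35.0, 32.9, 34.2 and 33.2 CPM, the nucleolar protein ncl at 745, 753, 752 and 747 CPM and the cartilage regulator sox9a at 34.3, 33.8, 34.3 and 36.6 TMM-scaled CPM. The genes commonly used as references did not all share this steadiness. tbp, sdha and eef1a1l1 had coefficients of variation beyond counting of 7.50%, 8.06% and 11.4%. gapdh reached 73.3%, rpl11 58.0%, b2m 51.1%, actb1 49.6% and rps23 44.5%. Between these lay b2ml at 12.6%, rpl13a at 17.1%, actb2 at 21.6% and rps18 at 25.99%. For gapdh, rpl11 and rps23 the highest library was replicate 4. Of reference genes with few reads, hprt1 had 4 over the control libraries.

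**Figure D5:**
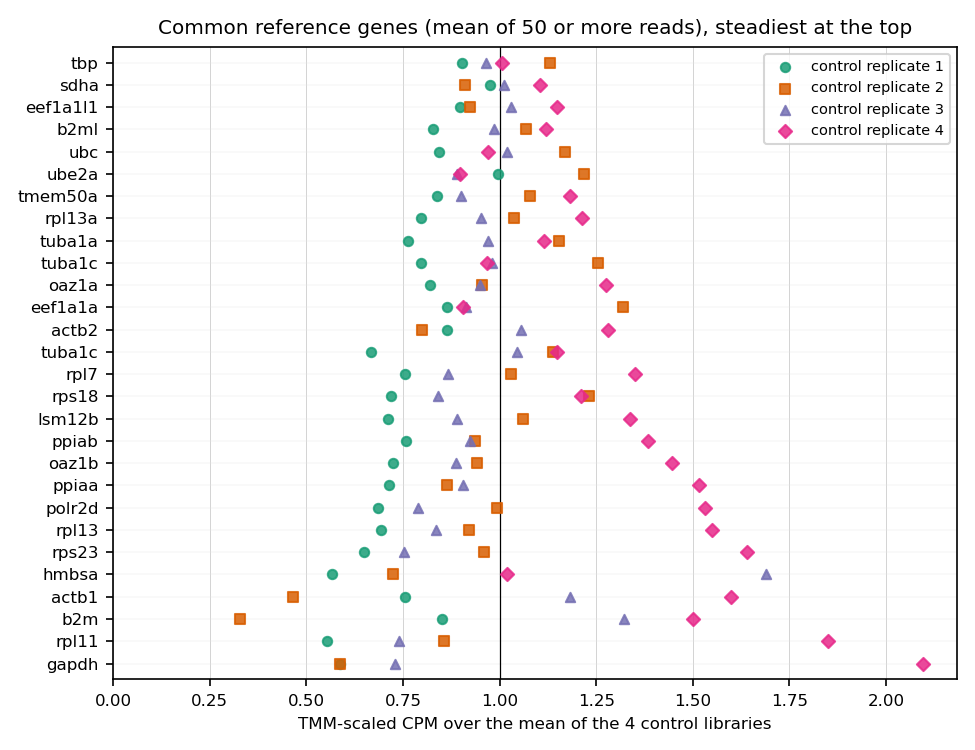
TMM-scaled CPM of the common reference genes with a mean of 50 or more reads, divided by the mean of the 4 control libraries, 1 point for each library, ordered by coefficient of variation beyond counting error. tbp, sdha and eef1a1l1 at the top lie close to 1, and gapdh and rpl11 at the bottom spread widely, highest in replicate 4.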

How the data were processed

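RNA of whole larvae was extracted with TRIzol, selected for poly(A), made into libraries with a directional kit and sequenced on a NovaSeq instrument, per the labels' protocols. The submitters' processing notes name fastp, HISAT2, featureCounts and DESeq2; versions, build, strand setting and the handling of reads shared by gene copies are not stated in the sources at hand, so overlapping genes cannot be told apart. The authors deposited raw read counts per gene and FPKM, per the file headers, in 3 tables that hold the same control columns: no gene differed among the 3 in any of the 4 libraries. The FPKM deposited by the authors rest on scaled library sizes and served only as an alternative; 34 columns of other normalized values were not used, and libraries of Afid high were not analysed here. The authors' other deposited columns used here, per the file headers, are gene annotation such as length, biotype and domain.

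TPM were computed from counts and the deposited gene length. CPM, the counts over library size, were scaled by TMM (edgeR 4.0.16, R 4.3.3), and log2 values have a prior count of 2. A chi-square test of each gene's 4 counts against scaled library sizes, with Benjamini-Hochberg adjustment at a threshold of 0.05, was run on genes with a mean of 10 or more reads and was tested on simulated data; it shows spread beyond counting, which may be technical. Genes 2-fold apart needed a mean of 50 or more reads. Other tools were Python 3.11.15, numpy 2.4.6, scipy 1.17.1, pandas 2.3.3 and DESeq2 1.42.0, which gave alternative size factors and dispersions. Depth was 13.2 to 18.6 M reads.

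The 56 tissue and function lists (1255 members, 1122 of them listed in the tables), the ribosomal and mitochondrial lists and the naming rule were chosen with earlier results of these data known. The rule names the 20 highest nuclear genes, the mitochondrial protein genes, the 4 highest members of each list, the most and least variable genes, the 5 genes furthest above and below in each library (mean of 100 or more reads), the 10 highest transcription factors, the 5 highest non-coding genes, and all reference, sterol and vanilloid channel genes, of which those described were picked by role; some genes that the rule names are not reported here. Other list members, such as further opsins, neuronal and brush border genes, were named for their roles after their values were seen. Alternatives were other scalings, filters, prior counts and denominators, and leaving out each library.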

Additional observations from a re-analysis of the deposited data

Results flagged for a closer look

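Of 285 sets of 4 control values, 22 had 1 value far from the other 3, with a gap to the nearest of the others that took up more of the whole range than Dixon's limit for 4 values allows. Chance flags about 1 in 20 such groups, but values of 1 library or of related genes are not independent. That rate does not hold for 7 of the genes, cox7a3, fus, crygm2d7, grin2db, kcna1b, slc12a5a and slc15a1b, which were named because they varied most or lay furthest apart in 1 library. Nor does it hold for genes named for their roles after their values were seen, slc5a1 among them. The values of control replicate 2 that lay apart were 0.920% of TPM for the liver list, 0.0296% for the neutrophil list, a score of 0.53 for hypothalamic peptides, and 256 TPM for cpa5, 6.26 TPM for dhcr7, 7.40 TPM for slc15a1b, 13.5 TPM for slc5a1 and 2176 TPM for pde6ha. All but the hypothalamic peptide score and pde6ha lay below the other 3 libraries. The sum of the neutrophil list was set by cpa5, so the value of that list and the value of cpa5 are not separate. In control replicate 1, the scores of embryonic globins and cartilage lay below the others at −0.59 and −0.46, while cox7a3 at 60.3 TPM, grin2db at 5.84 TPM, kcna1b at 14.2 TPM and slc12a5a at 25.1 TPM lay above. In control replicate 4, crygm2d7 at 162 TPM, crygm2d8 at 1890.0 TPM, rack1 at 8187 TPM and rps2 at 10052 TPM lay above the others, and rgra at 59.9 TPM and the immediate early list at 0.08997% of TPM lay below. The low immediate early and rgra values are ones of TPM only. In CPM the scores of the immediate early list were −0.12, −0.02, 0.06 and 0.07, highest in replicate 4. The retinal pigment epithelium list holds rgra and 6 genes with a mean of 10 or more reads. In CPM replicate 4 was the lowest in 0 of these 6, against 27.8% of all genes. In control replicate 3, fus at 8.03 TPM and insig2 at 18.8 TPM lay above the others.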

How the results depend on the processing

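No paired analysis was possible because the results come from 1 group, the control, with no contrast between groups. Without each replicate in turn, genes beyond counting error numbered 12205 to 14875, the biological coefficient of variation 0.217 to 0.298, genes at 1 TPM or more 18726 to 19098, the share of the 100 highest genes 42.9% to 46.7% and that of all tissue members 18.4% to 19.7%. The coefficient of variation was 0.265 as reported, 0.314 with no filter on low counts and 0.197 as the DESeq2 median gene-wise dispersion. The 100 highest genes took 34.2% of reads against 45.0% of TPM, and tissue members 21.3% of TPM without the mitochondrial genome. Of 56 lists with 3 or more scored members, those whose 4 scores spanned 1 log2 unit or more numbered 6, and 10 with a prior count of 0.5. Genes 2-fold above and below numbered 327 and 105 in replicate 1 and 150 and 483 in replicate 4 with total counts. With a mean of 10 or more reads they numbered 503 and 744 in replicate 1, 511 and 2265 in replicate 2, 388 and 700 in replicate 3, and 853 and 803 in replicate 4, where more genes were tested. The list shares moved by more than the spread between replicates for 38 of 58 lists as shares of reads and for 9 without the mitochondrial genome. FPKM as a share of their sum are TPM by construction, and leaving out 1 of 4 replicates cannot move a mean by 1 SD, so neither tests these shares. A change of sign was looked for only in the 16 list scores with a size of 0.5 or more, and none of these changed sign. Smaller scores were not checked. The cause of the changes with total counts, the prior count, the DESeq2 dispersion and the denominators was not tested. Depth limits genes of few reads: with means of 10 to 50 reads the median coefficient of variation was 42.0%, and 36.3% after counting variance was subtracted.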

Other observations

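The sum of TPM in transfer RNA genes of the mitochondrial genome was 0.869%, 1.05%, 0.878% and 1.83% in control replicates 1 to 4, from 0.0284%, 0.0380%, 0.0301% and 0.0722% of reads. Genes annotated as ribosomal RNA held 0.0154%, 0.0115%, 0.0105% and 0.00906% of reads, and microRNA genes 0.00440%, 0.00556%, 0.00333% and 0.00315%, in libraries selected for poly(A). The authors' FPKM rest on library sizes that were 1.08, 1.00, 1.02 and 0.853 times the summed gene counts of replicates 1 to 4.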
